A study of Homo sapiens with 8 samples.

Results

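The ATF4 program, the enzymes of serine synthesis and the cytosolic tRNA synthetases were followed here as a list of 41 genes, chosen by symbol. Of these, 36 had a probe set of their own among the 11963 genes that the arrays name. Where a gene had several, the one with the highest mean on the 8 arrays was taken. The values are log2 expression values with a floor of 2.08. Genes over log2 4 on at least 2 arrays were tested, and 35 members met this. SHMT1, the cytosolic serine hydroxymethyltransferase, lay at 2.08 on all 8 arrays and was not tested. SESN2, MTHFD1L and GPT2 had no probe set here, and MARS1 and QARS1 shared theirs with other symbols, so no value is given for these 5.

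The 4 groups came from 2 human cancer cell lines, with 2 arrays each. HUG1N, a gastric cancer line, was measured as cells carrying a hairpin RNA (shRNA) directed at GATA6 and as control cells, and so was Caco-2, a colorectal adenocarcinoma line with enterocyte features. GATA6 is a transcription factor of the developing gut with zinc fingers, and the series asked what it does in gastric cancer. The labels state infection and puromycin selection, with the same words for the control samples, and the treatment of the control cells is not stated. They give neither the number of hairpins or clones nor whether the arrays of a group are separate cultures, so the p-values speak of the spread among these arrays only, and that spread may be technical.

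ATF4 is a transcription factor whose protein is made when the initiation factor eIF2 is phosphorylated, as happens when amino acids are short or the endoplasmic reticulum is stressed. It acts as a dimer with C/EBP-family proteins and switches on genes for amino acid uptake, serine and asparagine synthesis, mitochondrial one-carbon metabolism and the charging of tRNAs. The serine pathway branches from glycolysis and runs through PHGDH, PSAT1 and PSPH, and its product feeds glycine, folate and nucleotide synthesis. Many tumours make serine this way. ATF4 is largely set by translation, which these arrays did not measure.

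Most members fell in HUG1N, and most of those called in Caco-2 rose. Of 35 tested members, 22 fell with the shRNA in HUG1N and 2 rose, where 23.9% of all 7696 tested genes were called lower and 24.7% higher. In Caco-2, 11 members rose and 1 fell, against 19.5% of all genes called higher and 19.2% lower. A gene is called where limma gave a Benjamini-Hochberg adjusted p under 0.05 over all genes. The median change of the members was -0.56 log2 units in HUG1N and 0.20 in Caco-2, and that of all genes was 0.00 in each line. With Caco-2 control replicate 2 left out, 7 members were called higher in Caco-2. In whole cultures, fewer cells that express a gene and less RNA per cell cannot be told apart.

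Both changes were called for 10 members, which fell in HUG1N and rose in Caco-2: ATF4, DDIT3, CEBPB, TRIB3, VLDLR, MTHFD2, ASNS, AARS1, SARS1 and YARS1. Of all genes, 3.86% were called in these opposite directions, and 3.44% in the reverse ones. VLDLR is the least secure of the 10, since both of its changes rest in part on levels under log2 4. Its Caco-2 call ended with values under log2 4 set to 4. A further 11 members fell in HUG1N without a call in Caco-2, among them PHGDH, PSAT1, PSPH and SHMT2. NUPR1 was called only in Caco-2, where it rose. CEBPG fell in both lines, as 6.89% of all genes did, and no member rose in both, as 6.29% of all genes did. The 2 that rose in HUG1N were IARS1 and RARS1, and 10 members were called in neither line. Among these 10, STC2 was under log2 4 on every HUG1N array, so a HUG1N change could not be measured for it.

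**Figure D1:**
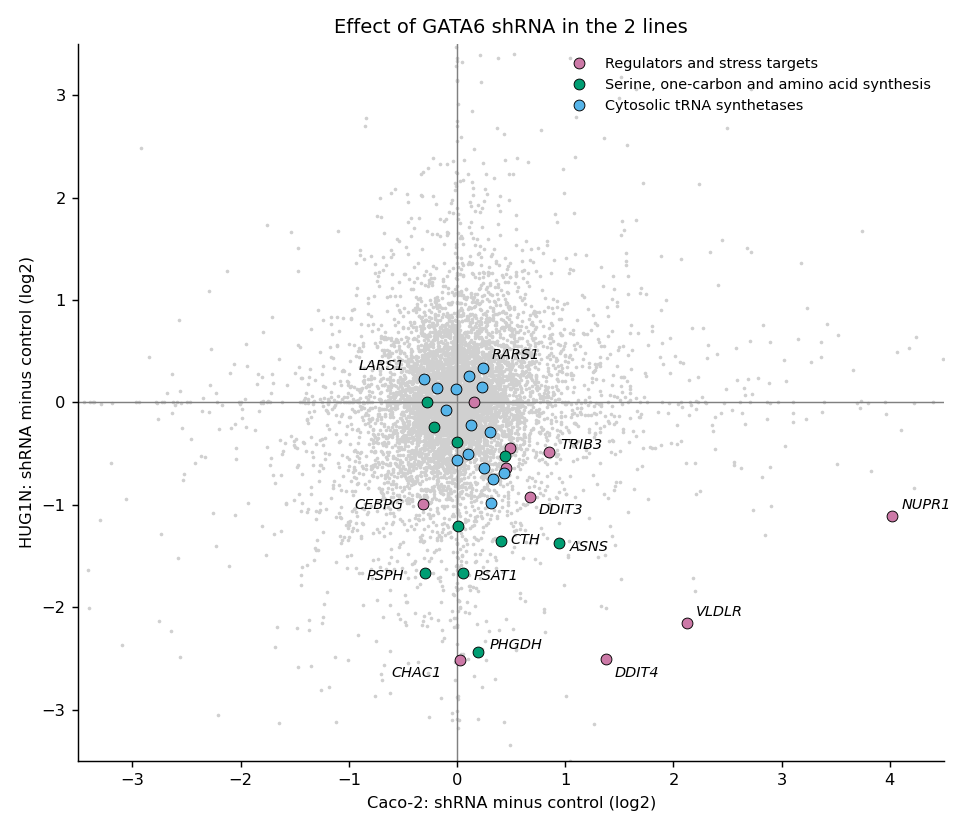
Change with GATA6 shRNA in HUG1N (vertical axis) and in Caco-2 (horizontal axis), each as shRNA minus control in log2 units, for all tested genes (grey) and the 35 members (coloured by role). Most named members lie where HUG1N is below 0 and Caco-2 above 0, and 70 other genes lie outside the axes.

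The first comparison of sequence was with the element that C/EBP and ATF dimers bind, since the members were gathered around ATF4. Promoter windows of RefSeq on GRCh38.p14, from 250 bases before to 50 after a gene's start, were held for 33 of the 41 members. The core motif TTGCATCA, on either strand, lay in 9 of these 33 members (27.3%). It lay in 304 of all 35116 windows (0.866%), or in 1.08% of 27305 genes. The looser motif TGATGNAAN, which contains the core read on the other strand, lay in 11 of 33 members (33.3%), in 3.61% of windows and in 4.45% of genes. The 9 were AARS1, CARS1, CEBPG, CHAC1, IARS1, MARS1, MTHFD1L, NARS1 and TARS1. Of the 7 with a tested value, 5 fell in HUG1N and 1 rose, where 23.9% of all genes fell and 24.7% rose. In Caco-2 1 rose and 1 fell, near the 19.5% and 19.2% of all genes. A match is a run of letters and not a measured binding site.

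The windows below are those of CHAC1, which fell to near its lowest level in HUG1N, of AARS1, which moved in opposite directions in the 2 lines, of CEBPG, which fell in both, and of IARS1, which rose in HUG1N. ASNS held only the looser motif and was added after its values were seen. Each is written 5′ to 3′ on the gene's own strand with the match in capitals, and positions are counted from the gene's start, base 1.
CHAC1, chr15:40953221-40953520, plus strand, match at -209 to -202: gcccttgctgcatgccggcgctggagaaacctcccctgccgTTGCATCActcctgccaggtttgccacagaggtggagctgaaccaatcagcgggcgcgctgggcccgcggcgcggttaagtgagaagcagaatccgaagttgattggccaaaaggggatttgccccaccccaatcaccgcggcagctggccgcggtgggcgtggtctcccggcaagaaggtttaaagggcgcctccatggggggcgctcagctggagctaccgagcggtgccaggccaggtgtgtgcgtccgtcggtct
AARS1, chr16:70289457-70289756, minus strand, match at -187 to -180: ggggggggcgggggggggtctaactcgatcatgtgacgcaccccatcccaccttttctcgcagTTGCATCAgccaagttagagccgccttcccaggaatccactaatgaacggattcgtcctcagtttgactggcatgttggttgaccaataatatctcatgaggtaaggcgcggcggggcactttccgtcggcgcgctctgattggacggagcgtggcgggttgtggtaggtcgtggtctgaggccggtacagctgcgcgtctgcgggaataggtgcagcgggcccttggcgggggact
CEBPG, chr19:33373863-33374162, plus strand, match at -42 to -35: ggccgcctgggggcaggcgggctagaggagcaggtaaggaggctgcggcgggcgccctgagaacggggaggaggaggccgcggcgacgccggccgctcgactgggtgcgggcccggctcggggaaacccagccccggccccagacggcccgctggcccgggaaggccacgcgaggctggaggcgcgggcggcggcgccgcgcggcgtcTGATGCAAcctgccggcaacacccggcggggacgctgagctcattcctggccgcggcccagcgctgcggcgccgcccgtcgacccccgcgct
IARS1, chr9:92293648-92293947, minus strand, match at -13 to -6: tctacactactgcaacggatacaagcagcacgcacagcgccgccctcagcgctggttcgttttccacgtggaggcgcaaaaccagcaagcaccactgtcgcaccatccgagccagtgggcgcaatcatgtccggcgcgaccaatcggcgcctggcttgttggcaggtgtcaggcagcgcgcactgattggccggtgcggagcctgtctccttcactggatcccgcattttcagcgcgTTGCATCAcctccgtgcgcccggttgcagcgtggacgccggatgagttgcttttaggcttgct
ASNS, chr7:97872359-97872658, minus strand, match at -68 to -60: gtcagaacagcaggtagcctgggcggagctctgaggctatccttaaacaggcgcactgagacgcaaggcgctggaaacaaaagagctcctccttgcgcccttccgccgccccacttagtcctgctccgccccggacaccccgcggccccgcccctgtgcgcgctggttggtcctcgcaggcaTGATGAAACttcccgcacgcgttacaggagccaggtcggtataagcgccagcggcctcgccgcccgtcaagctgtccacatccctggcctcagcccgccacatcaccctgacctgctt
The core motif thus stood in the windows of genes that fell in HUG1N and of 1 that rose there. In CARS1 and TARS1, which fell in HUG1N and whose windows are not shown, the match did not lie before the start. It ran across the start in CARS1 (-2 to 6) and lay after it in TARS1 (3 to 10).

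The hairpin's own target changed by under 0.5 log2 units in each line. Where 2 values are given for a group, they are those of replicates 1 and 2. GATA6 stood at 12.26 and 12.22 on the HUG1N shRNA arrays, against 12.54 and 12.45 on the HUG1N control arrays, and its change of -0.25 (SE 0.10, limma adjusted p = 0.0879) was not called. In Caco-2 it was 12.23 and 12.02 with shRNA, against 12.63 and 12.45 in control, a change of -0.42 (SE 0.10, limma adjusted p = 0.0224), a call lost without Caco-2 control replicate 1 (-0.32, adjusted p = 0.114) and likewise without Caco-2 shRNA replicate 2 (-0.31, adjusted p = 0.0964). Signs of RNA quality and, separately, of array hybridisation moved with the groups. The 3′ minus 5′ gap of the ACTB control probe sets was 3.69 and 3.77 log2 units on HUG1N shRNA arrays, against 2.68 and 2.35 on HUG1N control arrays, and it was 1.65 and 1.46 in Caco-2 shRNA, against 1.91 and 1.94 in Caco-2 control. The mean of 18 hybridisation control probe sets was 10.61 to 10.65 in HUG1N shRNA, against 12.42 to 12.61 in HUG1N control, and 12.06 to 12.20 in Caco-2 shRNA, against 12.16 to 12.35 in Caco-2 control. The part of these values in the results below was not tested.

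Markers of cell type also moved with the shRNA. All 7 epithelial markers were over log2 4 in every group, and their summed log2 level was 17.11 in HUG1N shRNA, against 16.47 to 16.53 in HUG1N control, and 17.31 to 17.35 in Caco-2 shRNA, against 16.48 to 16.52 in Caco-2 control. Of the 7, 5 rose in HUG1N and 4 in Caco-2, and none fell. Of all genes, 24.7% rose and 23.9% fell in HUG1N, and 19.5% rose and 19.2% fell in Caco-2. Of 7 enterocyte and colon markers, 5 were over log2 4 in Caco-2 shRNA and 6 in Caco-2 control, and their summed level was 13.19, against 13.70 to 13.77. In HUG1N, 4 were over log2 4 with shRNA and 5 in control, with a summed level of 14.35, against 14.29 to 14.36. Most of this HUG1N sum is LGALS4, which averaged 14.23 with shRNA and 14.21 in control. Of 6 tested markers of this list, 1 rose and 2 fell in HUG1N, and none rose and 3 fell in Caco-2. In HUG1N, VIL1 averaged 8.12 with shRNA, against 6.97 in control, CDX1 5.80, against 7.38, and FABP1 2.34, against 4.29. Of 8 gastric markers, 5 were over log2 4 in HUG1N shRNA and 6 in HUG1N control, with a summed level of 14.35 to 14.63, against 14.96 to 15.03. In Caco-2 3 were over log2 4 in each group, with a summed level of 8.54 to 8.76 in shRNA, against 11.89 to 11.97 in control. Of 6 tested gastric markers, 3 fell and 1 rose in HUG1N, and 2 fell and none rose in Caco-2. CLDN18 fell by 2.71 in HUG1N, and TFF1 and TFF2 fell in Caco-2 (-3.20 and -4.22). MUC5AC was higher in HUG1N shRNA, at 9.88 and 9.98, against 9.24 and 9.47 in HUG1N control. GPA33, a colon marker, and GKN1, a gastric one, lay at the floor in every group.

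Markers of other cell types were few. Of 8 fibroblast markers, 2 were over log2 4 in Caco-2 shRNA and 1 in each other group, and their summed level was 7.79 to 7.93 in Caco-2 shRNA, against 5.76 to 5.85 in Caco-2 control, with LUM as the marker that rose. Of 6 immune markers, PTPRC, CD3E, CD3D and MS4A1 lay at the floor in every group. LYZ, which some epithelia also express, gave 12.91 and 13.07 in HUG1N shRNA, against 12.45 and 12.39 in HUG1N control, and 7.65 and 7.39 in Caco-2 shRNA, against 9.68 and 9.27 in Caco-2 control. CD14 was over log2 4 in Caco-2 control only, at 4.85 and 4.37. Of 4 endothelial markers, CDH5, VWF and KDR lay at the floor in every group, and PECAM1 gave 4.76 and 3.85 in Caco-2 shRNA, against 5.07 and 5.51 in Caco-2 control. The part of these markers in the results below was not tested.

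Among the regulators, ATF4 itself changed by less than 1.5-fold in each line, in opposite directions. Its level was 13.53 and 13.51 in HUG1N shRNA, against 14.04 and 13.88 in HUG1N control. In Caco-2 the level was 14.04 and 14.05 with shRNA, against 13.56 and 13.55 in control. The groups did not overlap in either line. ATF4 fell by 0.44 (SE 0.07, limma adjusted p = 0.00390) in HUG1N and rose by 0.49 (SE 0.07, adjusted p = 0.00348) in Caco-2.

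DDIT3 encodes CHOP, a transcription factor that ATF4 induces under lasting stress and that can promote cell death. It read 10.14 and 10.29 in HUG1N shRNA, against 11.23 and 11.06 in HUG1N control, a change of -0.93 (SE 0.13, limma adjusted p = 0.00174). In Caco-2 it read 9.38 and 9.68 with shRNA, against 8.90 and 8.81 in control, a change of 0.67 (SE 0.13, adjusted p = 0.00788) that was not called without Caco-2 control replicate 2 (0.63, adjusted p = 0.0501). All shRNA arrays lay below all control arrays in HUG1N and above them in Caco-2.

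The C/EBP partners split. CEBPB, a leucine-zipper factor that dimerises with ATF4, had 13.26 and 13.25 in HUG1N shRNA, against 13.89 and 13.90 in HUG1N control. Its Caco-2 values were 12.76 and 12.86 with shRNA, against 12.37 and 12.36 in control. It fell by 0.64 (SE 0.07, limma adjusted p = 6.70e-04) in HUG1N and rose by 0.45 (SE 0.07, adjusted p = 0.00316) in Caco-2, as ATF4 did. CEBPG, the partner named most often for amino acid response genes, stood at 9.12 and 8.96 in HUG1N shRNA, against 10.06 and 10.01 in HUG1N control, and fell by 0.99 (adjusted p = 2.66e-04). Its Caco-2 values were 10.89 and 10.92 with shRNA, against 11.24 and 11.20 in control, and the change of -0.31 (adjusted p = 0.0214) went the same way. Leaving out any 1 of the Caco-2 arrays ended this Caco-2 call (-0.29 to -0.33, adjusted p of 0.0650 to 0.101).

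NUPR1, a small stress-induced chromatin protein, had the largest rise of any member in Caco-2. Its Caco-2 level was 7.81 and 7.42 with shRNA, against 3.03 and 4.15 in control, so that 1 of 2 control arrays was over log2 4. The change of 4.02 (SE 0.38, limma adjusted p = 5.91e-04) was fitted against values near the floor and has no fixed size. In HUG1N it stood at 10.60 and 11.10 with shRNA, against 12.10 and 11.82 in control. These groups did not overlap, and the change of -1.11 (SE 0.38, adjusted p = 0.0525) missed the threshold but was called in 8 of the 17 alternatives, with adjusted p from 0.00554 to 0.0498. They include leaving out Caco-2 control replicate 1 or 2 (-1.11, adjusted p = 0.0142 each).

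Of the stress targets, TRIB3, a pseudokinase that restrains ATF4 and CHOP, moved as ATF4 did. Its level was 11.67 and 11.89 in HUG1N shRNA, against 12.32 and 12.22 in HUG1N control, and 11.12 and 11.18 in Caco-2 shRNA, against 10.23 and 10.37 in Caco-2 control. It fell by 0.49 (SE 0.10, limma adjusted p = 0.00865) in HUG1N and rose by 0.85 (SE 0.10, adjusted p = 0.00133) in Caco-2.

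DDIT4, also called REDD1, an inhibitor of mTORC1, had the widest spread between replicates. HUG1N shRNA arrays gave 9.01 and 11.25, against 12.67 and 12.60 in HUG1N control. The groups did not overlap, but the shRNA arrays differed between themselves far more than the control arrays did. The change of -2.51 (SE 0.64, limma adjusted p = 0.0193) lost its call with either HUG1N control array left out (-2.48 and -2.54, adjusted p of 0.0777 and 0.0721). It was -1.39 without HUG1N shRNA replicate 1 and -3.63 without HUG1N shRNA replicate 2, so its size depends on single arrays. In Caco-2 it was 9.54 and 9.63 with shRNA, against 8.18 and 8.24 in control. That change of 1.37 (SE 0.64, adjusted p = 0.143) was not called with the spread shared over all arrays, and was called without HUG1N shRNA replicate 1 or 2 (1.37, adjusted p = 2.84e-04 each) and with Caco-2 alone (adjusted p = 0.00190).

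CHAC1, an enzyme that breaks down glutathione and a sharp reporter of ATF4 and CHOP activity, fell to near its lowest level in HUG1N. It gave 4.16 and 4.54 in HUG1N shRNA, against 7.12 and 6.62 in HUG1N control, a change of -2.52 (SE 0.19, limma adjusted p = 2.39e-04). In Caco-2 it lay just over log2 4 on every array, at 4.09 and 4.13 with shRNA, against 4.09 and 4.09 in control (change 0.02, SE 0.19, adjusted p = 0.953). Since 3 of the 4 Caco-2 arrays shared the value 4.09, the lowest for this probe set, the size of the HUG1N change is not fixed, and its fitted value is no bound.

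VLDLR, a lipoprotein receptor induced through ATF4, crossed the detection level. It read 3.31 and 3.32 in HUG1N shRNA, against 6.18 and 4.76 in HUG1N control, and 4.38 and 4.36 in Caco-2 shRNA, against 2.32 and 2.17 in Caco-2 control. Where no array of a group was over log2 4, the change is given against 4. VLDLR was thus at least 2.77-fold lower in HUG1N with shRNA (limma adjusted p = 0.00659; the fitted change of -2.15 was -1.44 without HUG1N control replicate 1 and -2.87 without replicate 2) and at least 1.29-fold higher in Caco-2 (adjusted p = 0.00912). The Caco-2 call ended with values under log2 4 set to 4 (0.37, adjusted p = 0.528) and without Caco-2 control replicate 2 (2.05, adjusted p = 0.0530).

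STC2, a secreted glycoprotein, was seen only in Caco-2 on its brighter probe set, at 10.05 and 10.01 with shRNA, against 9.73 and 10.02 in control (change 0.16, SE 0.15, limma adjusted p = 0.454). In HUG1N it read 2.34 and 2.08 with shRNA, against 2.34 and 2.08 in control, all below log2 4. A second, dimmer probe set of STC2 averaged 5.89 in Caco-2 shRNA, against 3.38 in Caco-2 control, so its probe sets disagreed. Averaged over both, the Caco-2 change was 1.34 (adjusted p = 5.42e-05).

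**Figure D2:**
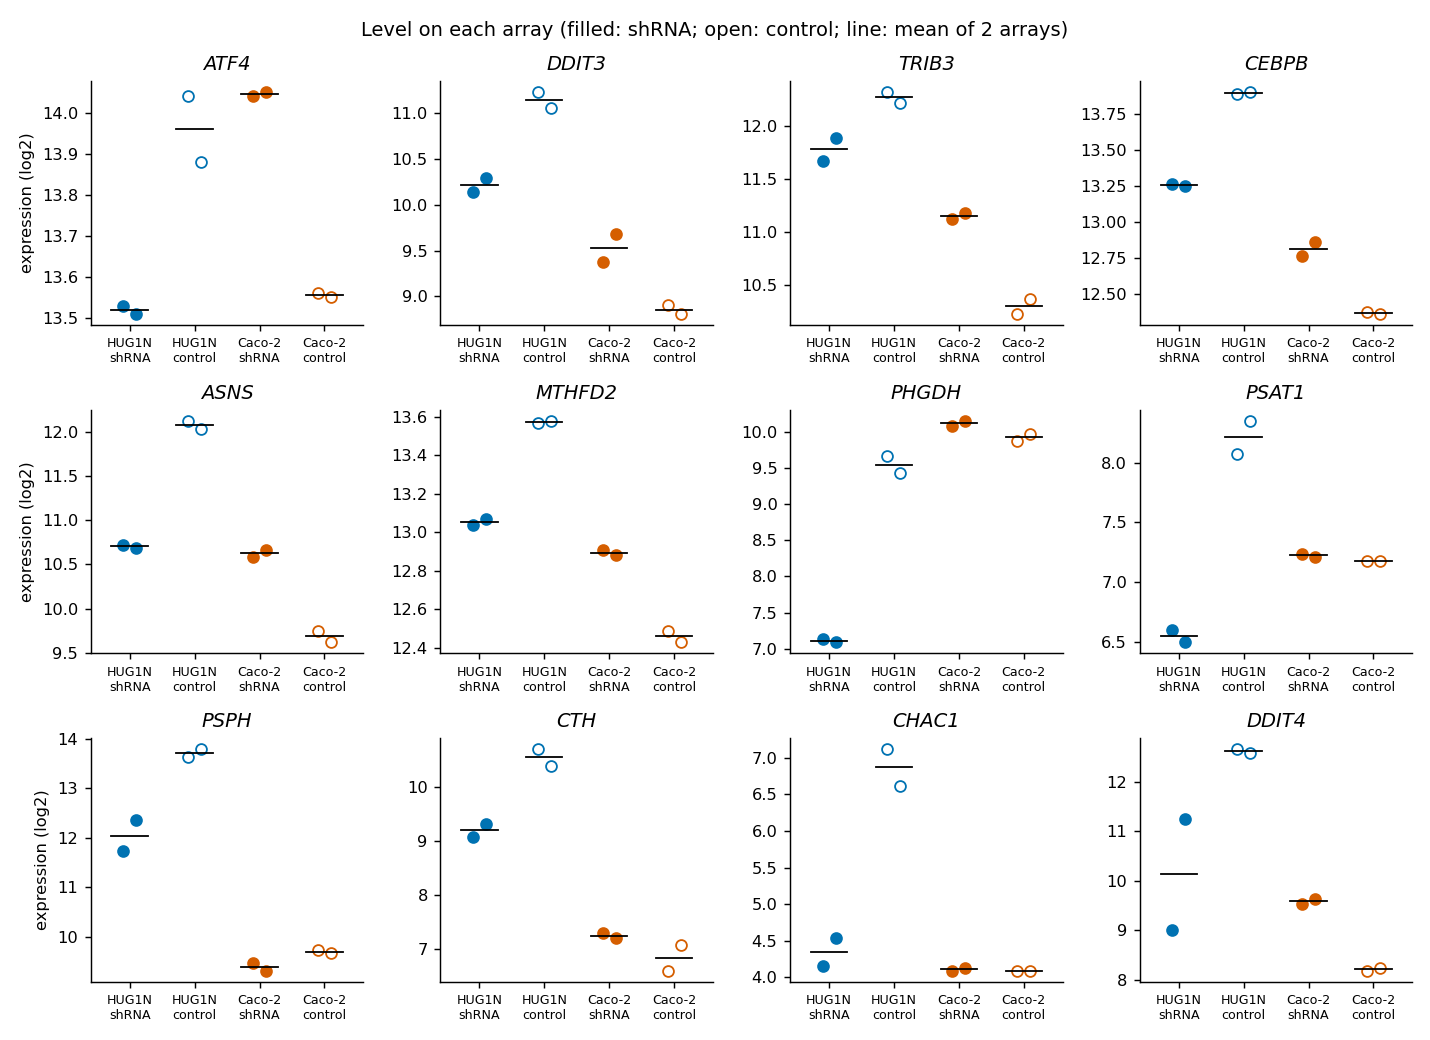
Log2 expression on each array (points) and group mean (lines) for 12 members, each panel on its own scale, with the HUG1N groups left of the Caco-2 groups and shRNA left of control in each. For ATF4, ASNS and TRIB3 the shRNA points lie below control in HUG1N and above it in Caco-2, while PHGDH in HUG1N shRNA lies below the other 3 groups.

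The 3 serine-pathway enzymes fell in HUG1N and were not called in Caco-2. PHGDH, the dehydrogenase that commits glycolytic carbon to serine, gave 7.13 and 7.09 in HUG1N shRNA, against 9.67 and 9.43 in HUG1N control. It was 5.43-fold lower (log2 change -2.44, SE 0.10, limma adjusted p = 4.54e-05). Its Caco-2 values were 10.09 and 10.16 with shRNA, against 9.88 and 9.98 in control, and the change of 0.20 (unadjusted 95% interval -0.04 to 0.44, adjusted p = 0.166) missed the threshold although the arrays did not overlap.

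PSAT1, the transaminase of the next step, stood at 6.60 and 6.50 in HUG1N shRNA, against 8.07 and 8.35 in HUG1N control. That was 3.17-fold lower (log2 change -1.66, SE 0.10, limma adjusted p = 1.26e-04). In Caco-2 it was 7.24 and 7.21 with shRNA, against 7.18 and 7.18 in control, a change of 0.05 (95% interval -0.19 to 0.30, adjusted p = 0.730). The Caco-2 interval does not reach the HUG1N change.

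PSPH, the phosphatase that releases serine, gave 11.73 and 12.36 in HUG1N shRNA, against 13.63 and 13.79 in HUG1N control, a change of -1.67 (SE 0.20, limma adjusted p = 0.00113). Caco-2 gave 9.47 and 9.32 with shRNA, against 9.73 and 9.67 in control, a change of -0.30 (SE 0.20, adjusted p = 0.283). A second probe set of PSPH averaged 9.88 in HUG1N shRNA and 10.02 in HUG1N control, and 10.31 in Caco-2 shRNA and 10.75 in Caco-2 control. Its changes of -0.14 in HUG1N and -0.44 in Caco-2 put the larger fall in Caco-2, so the probe sets disagreed on the size of the HUG1N fall and on which line fell more. The RefSeq table also lists a pseudogene, PSPHP1, and the brighter probe set is of the kind that may bind several transcripts, so its value is uncertain.

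The mitochondrial one-carbon enzymes that use serine fell in HUG1N as well. SHMT2, the mitochondrial hydroxymethyltransferase, was 11.62 and 11.70 in HUG1N shRNA, against 12.78 and 12.96 in HUG1N control, and fell by 1.21 (SE 0.09, limma adjusted p = 2.27e-04), with 2 other probe sets at -1.48 and -1.88. Its Caco-2 values, 11.35 and 11.47 with shRNA against 11.41 and 11.41 in control, gave a change of 0.00 (95% interval -0.21 to 0.22, adjusted p = 0.993). MTHFD2, the mitochondrial folate dehydrogenase that acts after SHMT2, was 13.04 and 13.07 in HUG1N shRNA, against 13.57 and 13.58 in HUG1N control, and 12.91 and 12.88 in Caco-2 shRNA, against 12.49 and 12.43 in Caco-2 control. It fell by 0.52 (SE 0.06, adjusted p = 0.00113) in HUG1N and rose by 0.44 (SE 0.06, adjusted p = 0.00273) in Caco-2. MTHFD1, the cytosolic folate enzyme, was called in neither line, at 0.01 in HUG1N and -0.28 (adjusted p = 0.0712) in Caco-2, where it was called without HUG1N shRNA replicate 1 or 2 (-0.28, adjusted p = 0.0426 each).

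ASNS, asparagine synthetase and a classic ATF4 target, was one of the clearest opposite movers. It gave 10.72 and 10.69 in HUG1N shRNA, against 12.13 and 12.04 in HUG1N control. Its Caco-2 levels were 10.59 and 10.66 with shRNA, against 9.75 and 9.62 in control. It was 2.60-fold lower in HUG1N (log2 change -1.38, SE 0.08, limma adjusted p = 9.75e-05) and 1.92-fold higher in Caco-2 (0.94, SE 0.08, adjusted p = 3.41e-04). The 4 shRNA arrays of the 2 lines lay within 10.59 to 10.72, while the control arrays lay 2.40 log2 units apart on average.

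CTH, cystathionine gamma-lyase, which makes cysteine by transsulphuration, was 9.08 and 9.31 in HUG1N shRNA, against 10.70 and 10.39 in HUG1N control, and fell by 1.35 (SE 0.19, limma adjusted p = 0.00200). In Caco-2 it was 7.29 and 7.20 with shRNA, against 6.60 and 7.08 in control (change 0.40, adjusted p = 0.143). The proline-pathway enzymes moved little. ALDH18A1, which starts proline synthesis from glutamate, changed by -0.24 (adjusted p = 0.0335) in HUG1N and -0.22 (adjusted p = 0.0598) in Caco-2. The HUG1N call of ALDH18A1 ended without Caco-2 control replicate 1 or 2 or any 1 of the 4 HUG1N arrays (-0.21 to -0.27, adjusted p of 0.0543 to 0.124). PYCR1, which finishes proline synthesis, changed by -0.38 (adjusted p = 0.0648) in HUG1N and was not called in Caco-2 either.

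**Figure D3:**
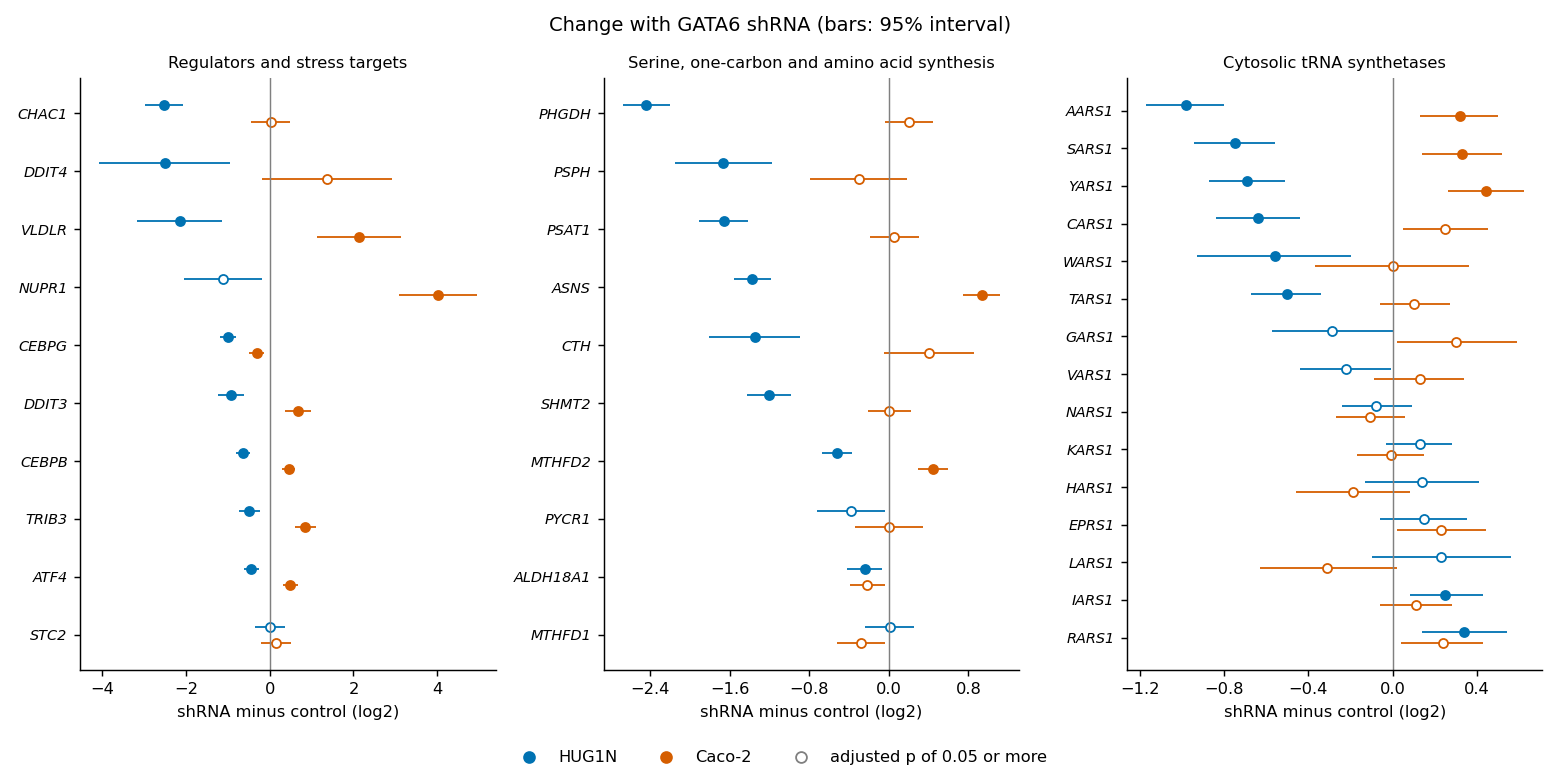
Change with GATA6 shRNA for each tested member by role, as shRNA minus control in log2 units with its unadjusted 95% interval (bars). HUG1N is drawn above Caco-2 in each row, and filled points had an adjusted p under 0.05. The values drawn for VLDLR, NUPR1 and CHAC1 rest in part on levels near or under log2 4. The HUG1N value drawn for STC2 rests only on levels under log2 4. The 3 panels have different scales.

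Of the 15 member tRNA synthetases tested, 6 fell and 2 rose in HUG1N, and 3 rose in Caco-2. Of all genes, 23.9% fell and 24.7% rose in HUG1N and 19.5% rose in Caco-2, so the Caco-2 share of 3 in 15 is near that of all genes and the HUG1N share of rises is below it. The enzymes attach an amino acid to its tRNA, and several are direct ATF4 targets. AARS1, for alanine, gave 10.42 and 10.43 in HUG1N shRNA, against 11.35 and 11.46 in HUG1N control, and was 1.98-fold lower (-0.98, SE 0.08, limma adjusted p = 2.67e-04). Its Caco-2 values were 11.40 and 11.52 with shRNA, against 11.16 and 11.12 in control (0.32, SE 0.08, adjusted p = 0.0200). The Caco-2 rise of AARS1 was not called without Caco-2 control replicate 1 (0.34, adjusted p = 0.0707), control replicate 2 (0.30, adjusted p = 0.0961) and likewise shRNA replicate 2 (0.25, adjusted p = 0.0883).

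YARS1, for tyrosine, was 10.83 and 10.81 in HUG1N shRNA, against 11.58 and 11.44 in HUG1N control, and 9.87 and 9.88 in Caco-2 shRNA, against 9.47 and 9.40 in Caco-2 control. It fell by 0.69 (limma adjusted p = 7.79e-04) in HUG1N and rose by 0.44 (adjusted p = 0.00570) in Caco-2. SARS1, for serine itself, was 10.16 and 10.01 in HUG1N shRNA, against 10.87 and 10.80 in HUG1N control, and 10.16 and 10.21 in Caco-2 shRNA, against 9.83 and 9.86 in Caco-2 control. It fell by 0.75 (adjusted p = 6.99e-04) in HUG1N and rose by 0.33 (adjusted p = 0.0187) in Caco-2, a call that ended with any 1 Caco-2 array left out (0.31 to 0.36, adjusted p of 0.0563 to 0.0882).

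CARS1, for cysteine, changed by -0.64 (limma adjusted p = 0.00148) in HUG1N and by 0.25 (adjusted p = 0.0546) in Caco-2, where it was called without HUG1N shRNA replicate 1 or 2 (0.25, adjusted p of 0.0468 and 0.0469). A second probe set of CARS1 changed by -0.80 in HUG1N and by -0.08 in Caco-2, so its probe sets disagreed on the Caco-2 direction. TARS1, for threonine, changed by -0.50 (adjusted p = 0.00177) in HUG1N and by 0.10 (adjusted p = 0.287) in Caco-2. WARS1, for tryptophan and also an interferon-induced gene, changed by -0.56 (adjusted p = 0.0227) in HUG1N, a call lost without HUG1N control replicate 1 (-0.36, adjusted p = 0.0798) and without shRNA replicate 2 (-0.45, adjusted p = 0.106). GARS1, for glycine, was not called in either line, at -0.29 (adjusted p = 0.0872) in HUG1N and 0.30 (adjusted p = 0.0868) in Caco-2. The HUG1N change of GARS1 was called without HUG1N shRNA replicate 1 (-0.43, adjusted p = 0.0345), and that of VARS1, for valine, without HUG1N control replicate 1 (-0.32, adjusted p = 0.0446).

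The 2 that rose in HUG1N were IARS1, for isoleucine, and RARS1, for arginine. IARS1 gave 12.64 and 12.59 in HUG1N shRNA, against 12.38 and 12.35 in HUG1N control (0.25, limma adjusted p = 0.0257). RARS1 gave 13.02 and 12.91 in HUG1N shRNA, against 12.67 and 12.58 in HUG1N control (0.34, adjusted p = 0.0158). The IARS1 call ended without HUG1N control replicate 1, control replicate 2 or shRNA replicate 1 (0.22 to 0.27, adjusted p of 0.0680 to 0.0927). The RARS1 call ended without HUG1N control replicate 2 (0.29, adjusted p = 0.0733) and without shRNA replicate 1 (0.28, adjusted p = 0.0694). LARS1, for leucine, was not called in HUG1N (0.23) or Caco-2 (-0.31). It was called higher in HUG1N without HUG1N shRNA replicate 1 (0.44, adjusted p = 0.0137), and lower in Caco-2 without HUG1N shRNA replicate 1 or 2 (-0.31, adjusted p of 0.0218 and 0.0219). The other synthetases without a call in either line were EPRS1 for glutamate and proline, HARS1 for histidine, KARS1 for lysine, NARS1 for asparagine and VARS1, with changes of -0.22 to 0.15 in HUG1N and -0.19 to 0.23 in Caco-2.

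Both enzymes that rose belong to the multisynthetase complex, an assembly of synthetases and scaffold proteins in the cytosol. The split into classes was made after the values had been seen and has no test. Of 5 tested synthetases of the complex, 2 rose and none fell in HUG1N, with changes of 0.13 to 0.34 and a median of 0.23. AIMP1, a scaffold protein of the complex that is not counted among them, fell in HUG1N (-0.25). The shares over all genes were 24.7% higher and 23.9% lower in HUG1N. KARS1, at 0.13 in HUG1N, had a second probe set that changed by -0.12 there. Other probe sets of EPRS1 changed by 0.10 and 0.81 in HUG1N, against 0.15 on the one used. Of 10 tested cytosolic members outside the complex, 6 fell and none rose in HUG1N, with changes of -0.98 to 0.14 and a median of -0.53. FARSA, a cytosolic synthetase subunit that is not a member, was placed in no class. It averaged 8.51 in HUG1N shRNA and 8.63 in HUG1N control. In Caco-2 the medians were 0.11 in the complex and 0.19 outside it. Among 9 tested mitochondrial synthetases, which are not members, 5 rose in HUG1N and none fell, with a median of 0.32. In Caco-2, 1 of these rose, 1 fell and the median was -0.24, where 19.5% of all genes rose and 19.2% fell.

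**Figure D4:**
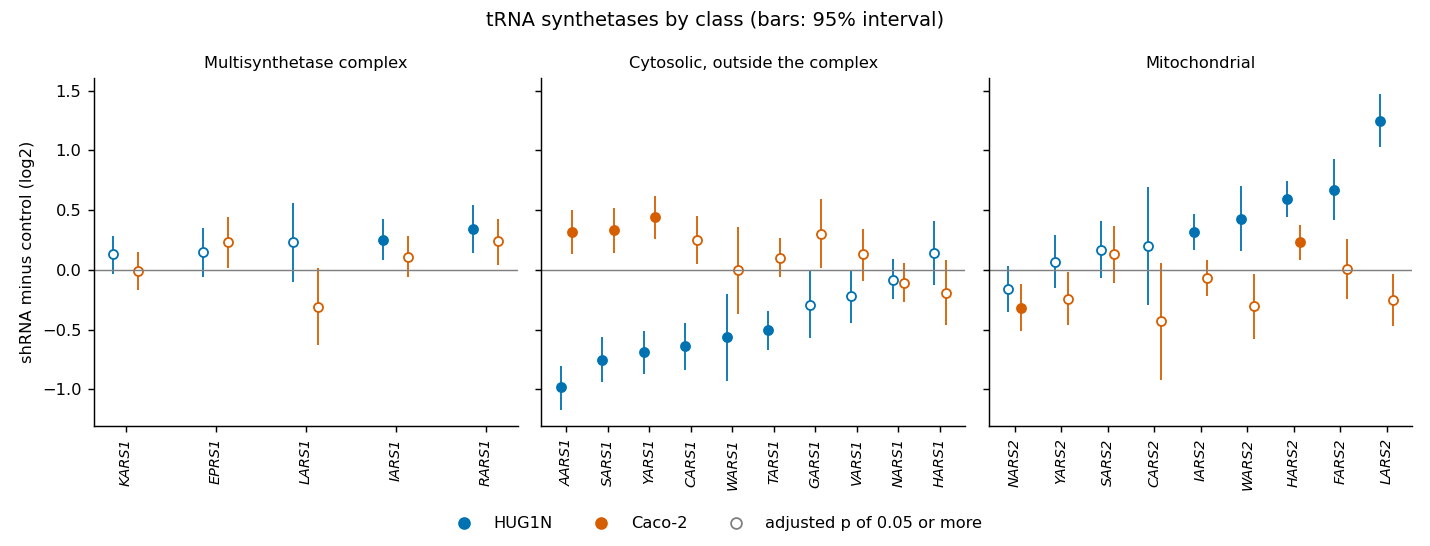
Change with GATA6 shRNA in HUG1N and Caco-2, in log2 units, for the tested tRNA synthetases placed in 3 classes, without FARSA. Bars give the unadjusted 95% interval, HUG1N is left of Caco-2, and filled points had an adjusted p under 0.05. In HUG1N the 10 cytosolic members outside the complex reach from -0.98 to 0.14, below most of the 5 enzymes of the complex and the 9 mitochondrial enzymes.

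The difference between the lines' effects was tested directly. The HUG1N change minus the Caco-2 change was below 0 for 22 of 35 members at an adjusted p under 0.05, and above 0 for none, where 22.7% of all genes were called below 0 and 22.2% above. The median difference of the members was -0.93 log2 units. For ATF4 the HUG1N change was -0.44, against 0.49 in Caco-2, a difference of -0.93 (SE 0.10, limma adjusted p = 0.00119). For PHGDH it was -2.44 in HUG1N, against 0.20 in Caco-2, a difference of -2.64 (SE 0.14, adjusted p = 8.68e-05). ASNS differed by -2.31 (SE 0.11, adjusted p = 5.66e-05), CHAC1 by -2.54 (SE 0.27, adjusted p = 9.46e-04, at the low end of its probe set) and NUPR1 by -5.14 (SE 0.54, adjusted p = 9.46e-04). VLDLR differed by -4.28 (SE 0.58, adjusted p = 0.00234), a value that rests in part on levels under log2 4 and was -3.57 and -5.00 without HUG1N control replicates 1 and 2. The same difference was called for CEBPG, at -0.68 (SE 0.11, adjusted p = 0.00399), although both of its changes were falls. The difference of DDIT4, -3.88 (SE 0.91, adjusted p = 0.0158), was not called without Caco-2 control replicate 1 (-3.85, adjusted p = 0.0508) and without Caco-2 shRNA replicate 2 (-3.84, adjusted p = 0.0505), and was -2.76 and -5.00 without HUG1N shRNA replicates 1 and 2. GARS1 differed by -0.59 (adjusted p = 0.0292), and leaving out either HUG1N control replicate 1, HUG1N shRNA replicate 2 or any 1 Caco-2 array ended that call (-0.45 to -0.65, adjusted p of 0.0537 to 0.0866). Calls appeared for LARS1 (0.74, adjusted p = 0.00690) without HUG1N shRNA replicate 1, for VARS1 (-0.44, adjusted p = 0.0361) without HUG1N control replicate 1, and for WARS1 (-0.76, adjusted p = 0.0211) and HARS1 (0.47, adjusted p = 0.0335) without HUG1N control replicate 2.

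The control cells of the lines differed. In HUG1N control, 26 of 35 members were higher than in Caco-2 control and 7 were lower, where 37.1% of all genes were called higher and 41.3% lower. The members' median difference was 1.0 log2 units, against -0.05 for all genes. These values share the control arrays of both lines with the comparisons above. NUPR1 stood 8.37 log2 units higher in HUG1N control (SE 0.38, limma adjusted p = 3.18e-06), against Caco-2 values near the floor. CTH was 13.0-fold higher and DDIT4 21.5-fold (adjusted p of 5.25e-06 and 7.72e-04). PSPH was 16.1-fold higher on the probe set used (adjusted p = 4.67e-06), but its second probe set averaged 10.02 in HUG1N control and 10.75 in Caco-2 control, the opposite order. CHAC1 was 2.79 higher (adjusted p = 1.86e-05), against Caco-2 values at the low end of its probe set. VLDLR was at least 2.77-fold higher in HUG1N control (adjusted p = 4.11e-04) and STC2 at least 58.7-fold lower (adjusted p = 9.75e-08). ATF4 was 0.41 higher (adjusted p = 0.00223) and PHGDH 0.38 lower (log2 difference -0.38, adjusted p = 0.0114). Among smaller differences, PHGDH was not called without Caco-2 control replicate 2 (-0.33, adjusted p = 0.0649). PYCR1 (0.52, adjusted p = 0.0131) was not called without Caco-2 control replicate 1 (0.37) or HUG1N control replicate 1 (0.43). AARS1 (0.27, adjusted p = 0.0168) was not called without either Caco-2 control array or HUG1N control replicate 2 (0.21 to 0.29). IARS1 (0.25, adjusted p = 0.0157) was not called without either Caco-2 control array or HUG1N control replicate 1 (0.24 to 0.27).

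Between the shRNA groups the lines lay closer for most of these genes. The median member was 0.16 log2 units higher in HUG1N shRNA than in Caco-2 shRNA, and 22 of 35 were higher in HUG1N. This median keeps the sign, so gaps in opposite directions offset each other in it and it does not give the size of a typical gap. The gap was smaller with shRNA than in control for 25 of 35 members (71.4%), against 55.9% of all genes. ASNS was 0.08 higher in HUG1N between the shRNA groups, against 2.40 between the control groups. For ATF4 the order turned, at -0.52 between the shRNA groups, against 0.41 between the control groups. PHGDH went the other way, its gap widening to -3.01 between the shRNA groups from -0.38 between the control groups. CEBPG (-1.87, against -1.19) and AARS1 (-1.03, against 0.27) also lay further apart with shRNA. These gaps are made of the same 8 arrays as the changes above and are given as a description.

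Upstream of ATF4, the eIF2 kinases, the phosphatase subunits and the eIF2 and eIF2B subunits gave a mixed picture. Of 13 tested, 6 fell and 1 rose in HUG1N with a median change of 0.07, so the calls and the median differed in sign, and 5 rose and 1 fell in Caco-2 with a median of 0.17. Of all genes, 23.9% fell and 24.7% rose in HUG1N, and 19.2% fell and 19.5% rose in Caco-2. PPP1R15A, which encodes GADD34, the stress-induced subunit that returns eIF2 to its unphosphorylated state, read 7.29 and 7.23 in HUG1N shRNA, against 8.12 and 8.18 in HUG1N control, and 8.29 and 8.38 in Caco-2 shRNA, against 6.86 and 7.09 in Caco-2 control. It fell by 0.89 (limma adjusted p = 7.23e-04) and rose by 1.36 (adjusted p = 1.75e-04), the pattern of ATF4. NCK1, an adaptor tied to eIF2 dephosphorylation, changed by -0.76 in HUG1N and 0.65 in Caco-2, both called. EIF2S2, the beta subunit of eIF2, fell by 0.78 in HUG1N, and EIF2S3, the gamma subunit, rose in both lines (0.59 in HUG1N and 0.56 in Caco-2). EIF2AK2, the kinase PKR, fell in HUG1N (-0.76) and in Caco-2 (-0.37).

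Among other genes tied to the ATF4 response, most also fell in HUG1N. Of 26 tested, 19 fell and 4 rose in HUG1N with a median of -0.57, and 12 rose and 4 fell in Caco-2 with a median of 0.26. The shares over all genes were 23.9% lower and 24.7% higher in HUG1N, and 19.5% higher and 19.2% lower in Caco-2. GDF15, a secreted stress cytokine, read 14.37 and 14.45 in HUG1N shRNA, against 15.00 and 14.97 in HUG1N control, and 13.53 and 13.59 in Caco-2 shRNA, against 11.03 and 10.98 in Caco-2 control. It fell by 0.58 (limma adjusted p = 0.00102) in HUG1N and was 5.88-fold higher in Caco-2 (2.56, adjusted p = 3.84e-06). SQSTM1, the autophagy receptor p62, fell by 0.27 and rose by 1.02. EIF4EBP1, which restrains cap-dependent translation, fell in HUG1N (-1.72) and in Caco-2 (-0.45). SLC1A5, a glutamine carrier, fell by 1.48 in HUG1N, and PDK1, a mitochondrial kinase that restrains pyruvate oxidation, by 2.05. The cystine carrier SLC7A11 did not share the pattern: it rose in both lines, by 0.55 in HUG1N (adjusted p = 0.00268) and 1.33 in Caco-2 (adjusted p = 1.18e-04). Outside the rule for named genes and picked after their values were seen, ATF3 changed by -1.73 in HUG1N and 1.51 in Caco-2, and ATF5 rose in both lines (1.40 in HUG1N and 0.67 in Caco-2).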

How the data were processed

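Total RNA of 8 samples was hybridised to Affymetrix human arrays with 3′ probe sets. Each probe set has a deposited log2 value per array, and GCRMA is the tool that the submitters' processing notes name for what the authors did. This method corrects background, equalises array distributions and summarises probes. No version of it is given in the sources used here. Every one of the 8 columns had a floor of 2.08, with 28.7 to 29.9% of probe sets of an array at it, and medians of 4.73 to 4.98, so levels were compared across lines. A fold change against values near the floor has no fixed size. Precision is limited by the number of arrays.

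Of 22277 probe sets, 19070 had 1 gene symbol in the platform's table, 1043 several and 2164 none here. Symbols were updated by Entrez identifier for 19058. The filter of log2 over 4 in at least 2 arrays kept 7696 genes and left out 4267. Tests used limma (version 3.58.1, under R 4.3.3; lmFit on 4 group means, contrasts, eBayes, all 8 arrays together, 4 residual and 2.17 prior degrees of freedom), with Benjamini-Hochberg adjustment over all 7696 genes. The fit was tested on simulated data. Arrays of a group correlated at 0.995 to 0.997, shRNA with control of a line at 0.962 to 0.966, and lines at 0.697 to 0.745.

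The members, gene lists and comparisons were chosen with earlier results of these data known. The named members were the 8 largest called changes per line, the 6 largest called differences between lines and between controls, ATF4, PHGDH, PSAT1 and PSPH, and for other lists the 3 called genes with the smallest p per line. Further members were named to account for every one. Alternatives were another filter, normalization, variance model, probe set rule and floor, each line alone, the replicate number as a block, and leaving out each array. Promoter windows are RefSeq's (GRCh38.p14), and motifs were searched on both strands. No genome was used here.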

Additional observations from a re-analysis of the deposited data

Results flagged for a closer look

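Each value here is the HUG1N change minus the Caco-2 change in log2 units, and each stands out because the shRNA effect differed between the lines by limma's interaction test (adjusted p under 0.05). It was called below 0 for 22 of 35 members, where 22.7% of all genes were called in that direction. Among regulators and stress targets it was -0.93 for ATF4, -1.60 for DDIT3, -1.09 for CEBPB, -0.68 for CEBPG, -5.14 for NUPR1, -1.34 for TRIB3, -3.88 for DDIT4, -2.54 for CHAC1 and -4.28 for VLDLR. Among the biosynthetic enzymes it was -2.64 for PHGDH, -1.72 for PSAT1, -1.36 for PSPH, -1.21 for SHMT2, -0.96 for MTHFD2, -2.31 for ASNS and -1.75 for CTH. Among the synthetases it was -1.30 for AARS1, -0.89 for CARS1, -0.59 for GARS1, -1.08 for SARS1, -0.61 for TARS1 and -1.13 for YARS1. The calls of GARS1 and DDIT4 ended without the filter (limma adjusted p of 0.0764 and 0.0689) and with some single arrays left out. The differences of NUPR1 and VLDLR rest in part on levels under log2 4, and that of CHAC1 on levels at the low end of its probe set, near log2 4. That of PSPH was not called on the mean of its probe sets (-0.53, adjusted p = 0.0874), and its second probe set fell less in HUG1N (-0.14) than in Caco-2 (-0.44).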

How the results depend on the processing

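Of 140 pairs of a member and a comparison, 102 kept their direction and their side of the threshold in all 17 alternatives, 17 lost a call in at least 1, 21 gained one and none reversed. Members called lower in HUG1N numbered 20 to 25 over all alternatives (22 as reported), and members that fell in HUG1N and rose in Caco-2 numbered 7 to 13 (10 as reported). Leaving out 1 array gave 7 to 13 Caco-2 rises and 0 to 3 Caco-2 falls, 0 to 2 HUG1N rises, and 0 to 1 positive differences between lines. Caco-2 falls numbered 3 with a trended robust variance and 3 with each line alone, where HUG1N rises numbered 1. A trended robust variance gave 1 positive difference between lines and called GATA6 in HUG1N (-0.25, adjusted p = 0.0346). GATA6 in Caco-2 was not called without the filter (-0.42, adjusted p = 0.0562) or with the line alone (-0.42, adjusted p = 0.0590), and its change was -0.52 to -0.31 with 1 array left out. Samples with the same replicate number deviated together at a correlation of -0.02 in HUG1N and 0.07 in Caco-2. The labels do not say whether these numbers mark pairs, and 2 arrays a group cannot settle it. With the replicate number as a block, HUG1N rises numbered 1 and members with opposite calls again 10, of which 9 were shared. With a filter over log2 6, 9 of the 10 reported members stayed, VLDLR dropped out, and CARS1 and NUPR1 came in. AARS1, DDIT3, SARS1 and VLDLR each dropped out with at least 1 of the Caco-2 arrays left out, so the named set is less stable than its count. The cause of these changes was not tested. DDIT4 in HUG1N was not called without the filter (-2.51, adjusted p = 0.0815) or with the line alone (adjusted p = 0.0694). A level near the floor has only a bound.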

Other observations

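Of 15 tested enzymes of folate, glycine and nucleotide one-carbon metabolism, 1 fell and 4 rose in HUG1N with a median change of 0.06, and 3 fell and none rose in Caco-2 with a median of -0.19. Of all genes, 23.9% fell and 24.7% rose in HUG1N, and 19.2% fell and 19.5% rose in Caco-2, and the counts of the next lists stand beside the same shares. SLC19A1, the reduced folate carrier, rose by 1.45 in HUG1N (limma adjusted p = 6.14e-04) and fell by 0.60 in Caco-2 (adjusted p = 0.0207). GCSH, a carrier protein of the glycine cleavage system, rose by 0.34 and fell by 0.44, and DLD, its dehydrogenase, rose by 0.77 in HUG1N (adjusted p = 5.37e-04). PAICS, of purine synthesis, fell by 0.27 in Caco-2.

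Of 11 tested enzymes of proline, glutamine, aspartate and related amino acids, 3 rose and 3 fell in HUG1N, and 2 rose and 6 fell in Caco-2, with medians of 0.16 and -0.43. GLUD1, glutamate dehydrogenase, was 4.18-fold lower in Caco-2 (-2.06, limma adjusted p = 5.10e-05), OAT, ornithine aminotransferase, was 2.36-fold lower (-1.24, adjusted p = 3.73e-04), and BCAT1, a branched-chain transaminase, rose by 1.54 (adjusted p = 0.00149). In HUG1N, ASS1, argininosuccinate synthase, fell by 0.67, BCAT2 by 0.96 and GOT1 by 0.67.

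Of 11 tested synthetases and complex proteins beyond the members, 5 rose and 1 fell in HUG1N, and 1 rose and 1 fell in Caco-2. LARS2, the mitochondrial leucyl enzyme, rose by 1.25 in HUG1N (limma adjusted p = 2.07e-04), as did HARS2 (0.59) and FARS2 (0.67), while AIMP1, a scaffold of the complex, fell by 0.25 there. HARS2 rose by 0.23 and NARS2 fell by 0.32 in Caco-2. EPRS1, which spans glutamate and proline charging, was called in neither line on the probe set used (0.15 in HUG1N and 0.23 in Caco-2), while another of its probe sets changed by 0.81 in HUG1N.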
